A study of Homo sapiens with 27 samples.

Results

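The genes described here are 45 human genes of the lysosome, taken as a list of symbols: 7 for membrane and transport proteins, 6 for lipid handling, 9 for peptidases, 10 for glycosidases and sulfatases, 10 for subunits of the vacuolar proton pump (V-ATPase) and 3 for transcription factors of the MiT/TFE family. All 45 symbols matched 1 gene each among the 57905 Ensembl genes of the table. RNA-seq was performed on U937 cells, a human myelomonocytic leukemia line, to follow gene expression after exposure to matrine, a plant alkaloid. There were 3 groups of 3 libraries: control cells given the water vehicle, and cells exposed to matrine at 0.8 mg/ml for either 30 min or 24 h. The labels do not say that replicates were separate cultures, so p-values measure the spread between these samples, which may be technical. There is 1 control group for both times, and its own time in culture is not given in the sources used here, so 24 h of matrine and time in culture cannot be told apart.

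Lysosomes are the acidic organelles in which cells break down proteins, lipids, glycans and whole organelles delivered by endocytosis and autophagy. Soluble hydrolases do the digestion, heavily glycosylated membrane proteins line the organelle and move products out, and the V-ATPase pumps protons in to keep it acidic. Some of these genes carry E-box motifs near their start that TFEB, TFE3 and MITF can bind, and monocytes and macrophages are rich in lysosomes. The same E-box letters are also bound by other factors of the helix-loop-helix class, MYC with MAX among them.

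Promoter sequence was read for the 31 of 45 genes with an entry among RefSeq promoters (GRCh38.p14), each from 250 bases before to 50 bases after the start. The letters CACGTG (an E-box) and the longer TCACGTGA, which contains it, were searched, and both read the same on either strand. An E-box was found in 9 of the 31 promoters (29.0%) and the longer form in 5 (16.1%), against 7.43% and 1.04% of all 27305 promoters, and against 10.9% and 2.21% of the 8584 promoters of genes tested at 24 h. The 9 genes were LAMP1, CD63, MCOLN1, CTSA, CTSD, GAA, NEU1, ATP6V0B and ATP6V0D1, with 18 E-boxes in all, of which 8 lay within the longer form. The following windows are shown because they cover the 4 of these genes whose mRNA passed the call rule at 24 h (NEU1, CTSD, CD63, ATP6V0D1) and 2 that did not (LAMP1, MCOLN1). Each is 30 bases, 5′ to 3′ on the strand of the gene, with the motif in capitals.
NEU1, chr6:31862930-31862959, minus strand: atgctgcgtgatCACGTGggaggagatgag
CTSD, chr11:1763957-1763986, minus strand: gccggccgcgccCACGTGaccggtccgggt
CD63, chr12:55729172-55729201, minus strand: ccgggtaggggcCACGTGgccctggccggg
ATP6V0D1, chr16:67481199-67481228, minus strand: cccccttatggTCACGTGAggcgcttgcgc
LAMP1, chr13:113297199-113297228, plus strand: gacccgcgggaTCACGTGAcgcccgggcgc
LAMP1, chr13:113297226-113297255, plus strand: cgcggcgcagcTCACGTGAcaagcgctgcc
MCOLN1, chr19:7522571-7522600, plus strand: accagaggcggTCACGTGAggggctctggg
MCOLN1, chr19:7522598-7522627, plus strand: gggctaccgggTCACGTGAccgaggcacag
A match describes the letters only and is not a measured binding site.

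Libraries held 17314931 to 21930018 counts, with 4.99% to 5.28% of them in the 10 most abundant genes of each library. Control replicate 2 differed more from the other control libraries (chi-square per degree of freedom 7.20 and 7.39) than those did from each other (2.38), and 30 min replicates 2 and 3 differed most (11.9). The line's defining myelomonocytic genes were present, with control means of 292.3 FPKM (fragments per kilobase of transcript, scaled to depth) for LYZ and 67.6 FPKM for SPI1. The erythroid HBG1 and the lymphoid MS4A1 and CD3E were listed at 0 in every group. Other listed markers were not absent: the erythroid list summed to 42.2 to 45.7 FPKM in control, nearly all of it TFRC. The lymphoid list summed to 162.5 to 186.3 FPKM, nearly all of it NKG7. A gene was tested in a comparison if its mean FPKM over the 6 libraries compared was above 1. A gene was called if its adjusted p was below 0.05 and its fold change at least 1.5.

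Of the lysosomal genes, 40 were tested and 5 were not. All tested members had a control mean of at least 2.90 FPKM, the value of ARSA, so no tested member passed through its 24 h level alone. CTSL, the cysteine protease cathepsin L, had 0 or 1 count in each library. SGSH, which removes sulfate from heparan sulfate, and ATP6V0A1, a membrane subunit of the pump, had 0 counts in all 6 control and 30 min libraries and 0, 1 and 3 counts in the 24 h libraries. CD68, a macrophage lysosomal glycoprotein, was listed at 0.48, 0.61 and 0.58 FPKM in control and 0.65, 0.88 and 0.63 FPKM at 24 h, and 85.6% of its exonic bases overlap other annotated genes in GENCODE 44. MITF, the third MiT/TFE member, was listed at 0.79, 0.48 and 0.68 FPKM in control and 0.80, 0.92 and 0.94 FPKM at 24 h.

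After 30 min of matrine, no lysosomal gene was called: 0 of 40 were higher and 0 lower, where 0.0949% and 0.544% of all 11587 tested genes were called higher and lower. With edgeR's quasi-likelihood test, 7 members had an unadjusted p below 0.05, of which 4 were higher and 3 lower. Over all 11587 tested genes there were 1284, of which 439 were higher and 845 lower. The members' smallest adjusted p was 0.15. DESeq2 and limma also called 0. Log2 fold changes ran from -0.26 to 0.27 with a median of 0.045, against -0.004 over all tested genes. Leaving out 1 library moved the members' median between 0.027 (without 30 min replicate 1) and 0.098 (without 30 min replicate 2), with 0.028 and 0.075 without control replicates 3 and 2. The gene with that smallest adjusted p was NAGLU, an N-acetylglucosaminidase of heparan sulfate breakdown, at 13.3, 14.8 and 12.4 FPKM in control and 11.2, 10.4 and 11.9 FPKM at 30 min. Its 30 min libraries were all below its control libraries, with a log2 fold change of -0.26 (SE 0.084).

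After 24 h, 16 of the 40 tested members were higher than control by at least 1.5-fold and 0 were lower, where 14.7% of all 12035 tested genes were called higher and 11.6% lower. Without control replicate 2, the counts were also 16 and 0. At the adjusted p alone, without regard to fold, 32 were higher and 3 lower, where 30.6% and 32.7% of all tested genes passed. The count of 0 lower calls was the same in DESeq2 and limma. At an unadjusted p below 0.05 (edgeR), 3 members were lower, beside 4110 of all 12035 tested genes. The median log2 fold change was 0.47 over the 40 members and -0.006 over all tested genes. Every 24 h library lay above every control library for 33 of the 40 tested members, against 38.7% of all tested genes, and below for 2, PPT1 and CTSC, against 31.0%. In bulk RNA, a changed share of cells and a changed amount of RNA per cell cannot be told apart.

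Against the 30 min libraries in place of control, the same 24 h libraries gave 17 of 40 members higher and 0 lower, where 15.7% of 11981 tested genes were called higher and 11.3% lower. These 17 were the 16 above and NAGLU, at a log2 fold change of 0.75. edgeR gave 4 members lower at an unadjusted p below 0.05, beside 3990 of all 11981 tested genes. DESeq2 and limma also called 0 lower. The median was 0.458, against 0.022 over all tested genes.

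**Figure D1:**
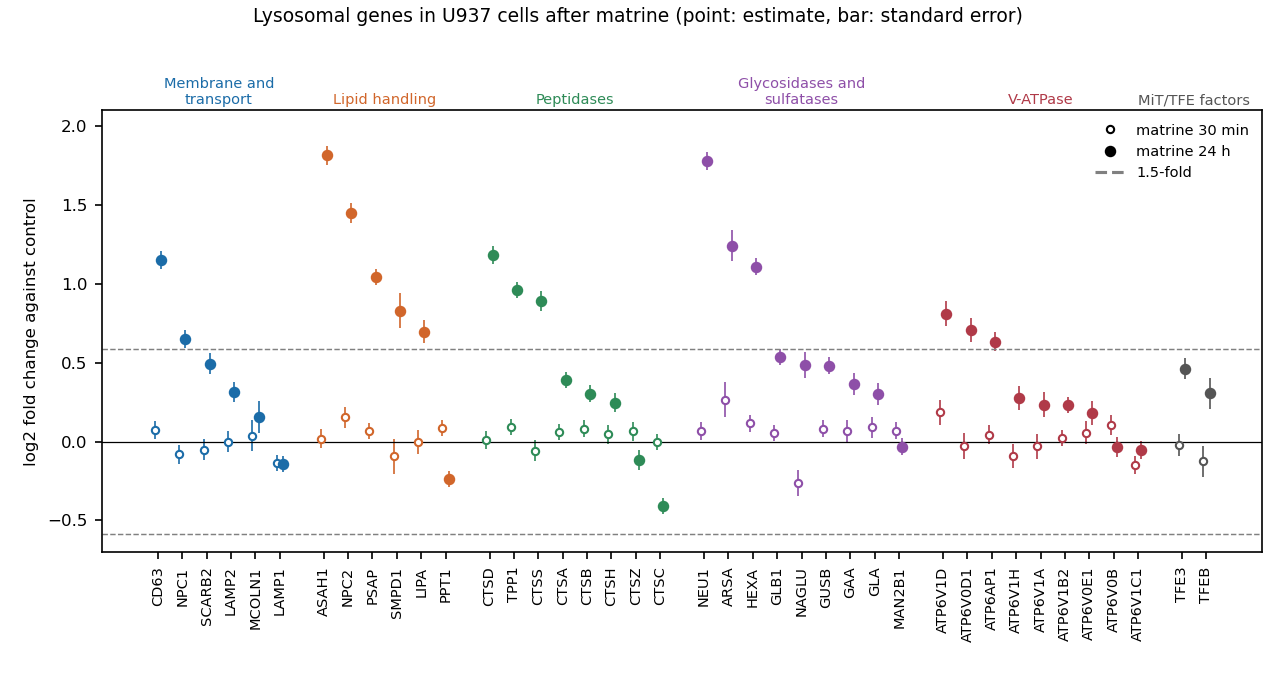
Log2 fold change against control of the 40 tested lysosomal genes, grouped by role, after 30 min (open points) and 24 h (filled points) of matrine, with standard errors as bars and dashed lines at 1.5-fold. At 30 min the points lie between -0.26 and 0.27; at 24 h 16 of them lie above the upper line and none below the lower line.

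In total, the 45 genes held 0.829% to 0.878% of counts in control, 0.840% to 0.869% at 30 min and 1.39% to 1.42% at 24 h. Their summed level was 2054 to 2205 FPKM in control, 2085 to 2179 FPKM at 30 min and 3601 to 3705 FPKM at 24 h. The 24 h libraries did not overlap the others in either measure. A large part of that sum came from CTSD alone, with 0.155% to 0.179% of counts in control and 0.384% to 0.406% at 24 h. By mean FPKM among all 57905 genes, CTSD stood at rank 48 in control and rank 14 at 24 h.

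Of the membrane and transport genes, 2 of 6 tested were called higher and 0 lower at 24 h, beside 14.7% and 11.6% of all tested genes. CD63, a tetraspanin of late endosomes and lysosomes, was at 75.4, 81.9 and 75.1 FPKM in control, 84.4, 77.7 and 80.7 FPKM at 30 min and 179.0, 176.4 and 184.6 FPKM at 24 h. The 24 h libraries stood clear of the other 6, and the log2 fold change at 24 h was 1.15 (SE 0.057, adjusted p = 7.8e-13, edgeR). NPC1, the membrane protein that passes cholesterol out of the lysosome, was at 10.0, 9.46 and 10.5 FPKM in control and 16.4, 16.9 and 15.7 FPKM at 24 h. Its groups did not overlap either, at a log2 fold change of 0.65 (SE 0.059, adjusted p = 7e-09). SCARB2, the receptor that carries glucocerebrosidase to lysosomes, was at 12.02, 11.25 and 12.86 FPKM in control and 17.39, 18.02 and 17.66 FPKM at 24 h. Those libraries did not overlap, but the log2 fold change of 0.49 (SE 0.066, adjusted p = 1.6e-06) stayed under 1.5-fold.

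The most abundant gene of this role in control took the other direction. LAMP1, a main glycoprotein of the lysosomal membrane, was at 115.6, 125.0 and 119.0 FPKM in control, 108.6, 107.7 and 108.6 FPKM at 30 min and 110.8, 112.3 and 117.5 FPKM at 24 h. Control and 24 h libraries overlapped, and the log2 fold change was -0.14 (SE 0.051, adjusted p = 0.022). At 30 min it was already -0.135, which did not pass (edgeR adjusted p = 0.27). Between 30 min and 24 h, LAMP1 had a log2 fold change of -0.004 (edgeR adjusted p = 0.95). Its promoter had 6 E-boxes, the most of any member, and 2 of them were in the longer form. LAMP2, its close relative, rose by a log2 fold change of 0.32 (SE 0.065, adjusted p = 0.00025). MCOLN1, a calcium channel of the lysosomal membrane with 2 longer forms in its promoter, was at 4.66 ± 0.23 FPKM in control and 5.42 ± 0.46 FPKM at 24 h (mean ± SD, n = 3), with a log2 fold change of 0.16 that did not pass (SE 0.10, adjusted p = 0.18).

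Lipid handling had the most calls for its size, with 5 of 6 tested genes higher at 24 h, beside 14.7% of all tested genes. Its median log2 fold change was 0.94. The roles are small lists chosen with earlier results of these data known, and differences between them were not tested. ASAH1, the acid ceramidase that splits ceramide, was at 45.69, 44.03 and 44.74 FPKM in control, 46.58, 47.83 and 40.41 FPKM at 30 min and 167.0, 167.3 and 159.6 FPKM at 24 h. Every 24 h library was far above the other 6, and the log2 fold change of 1.81 (SE 0.061, adjusted p = 1.6e-15) was the highest among the tested members. NPC2, the soluble cholesterol carrier that works with NPC1, was at 41.6, 46.3 and 41.7 FPKM in control and 119.1, 122.3 and 127.8 FPKM at 24 h. The groups did not overlap, at a log2 fold change of 1.45 (SE 0.065, adjusted p = 1.6e-13). PSAP, the precursor of the saposins that help hydrolases reach sphingolipids, was at 128.1, 135.2 and 130.0 FPKM in control and 276.4, 278.2 and 290.0 FPKM at 24 h. Again no library overlapped, and the log2 fold change was 1.04 (SE 0.051, adjusted p = 7.2e-13).

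SMPD1, the acid sphingomyelinase, and LIPA, the acid lipase of cholesteryl esters, were the other called genes of this role, at log2 fold changes of 0.83 (SE 0.11) and 0.70 (SE 0.075). PPT1, which removes fatty acids from palmitoylated proteins, was at 154.2, 156.2 and 155.4 FPKM in control, 165.3, 165.7 and 158.7 FPKM at 30 min and 138.3, 134.9 and 139.5 FPKM at 24 h. Its 24 h libraries were the lowest of the 9, and it fell by 0.24 on the log2 scale (SE 0.049, adjusted p = 0.00028), short of 1.5-fold.

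**Figure D2:**
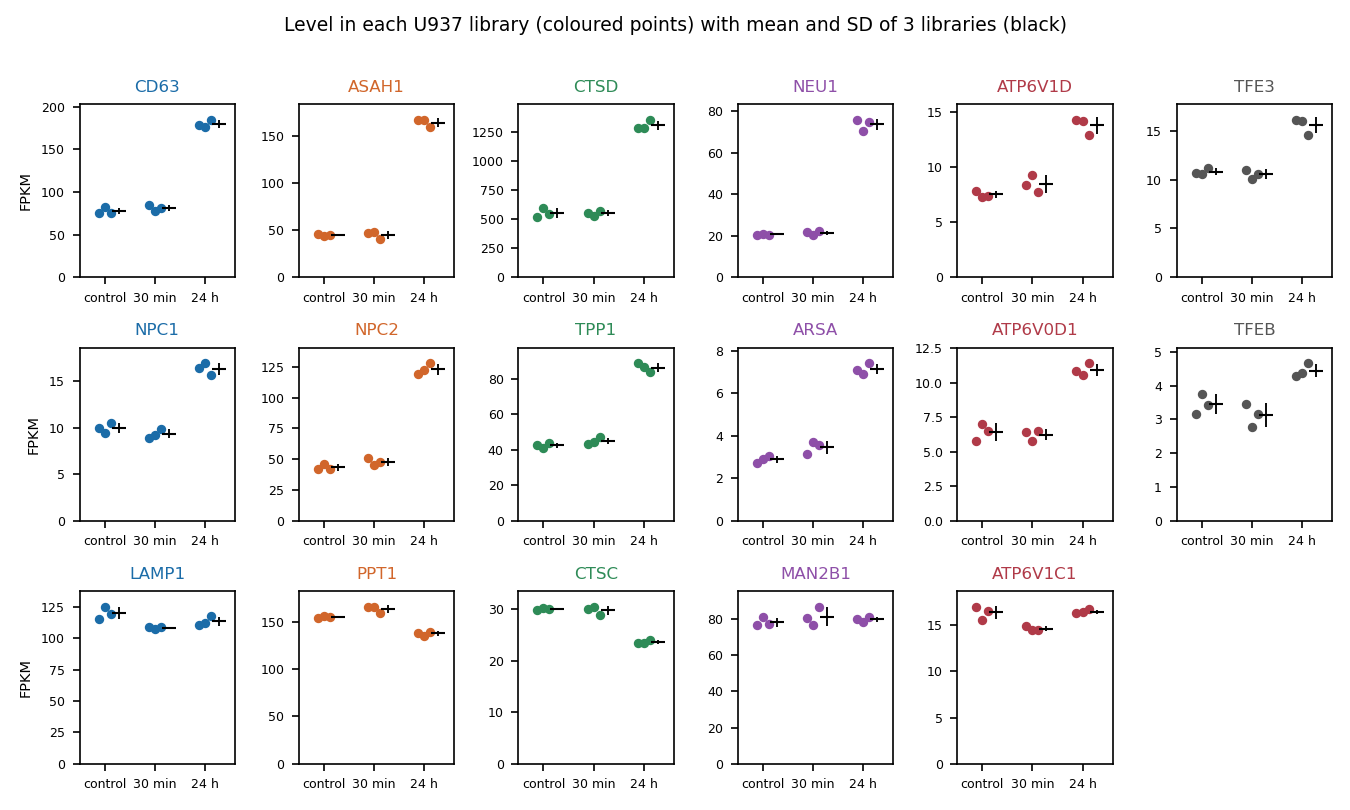
Level in FPKM in each U937 library (coloured points) with the mean and SD of 3 libraries (black), for the 2 tested genes with the largest and the 1 with the smallest log2 fold change at 24 h in each role (both tested genes for MiT/TFE factors), each panel with its own axis from 0. The upper panels of the first 5 roles show 24 h libraries clear of control and 30 min, while PPT1 and CTSC show 24 h libraries below both and MAN2B1 shows all 3 groups mixed.

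Among the peptidases, 3 of 8 tested genes were called higher and 0 lower at 24 h, beside 14.7% and 11.6% of all tested genes. CTSD, the aspartic protease cathepsin D, was at 515.9, 597.1 and 542.6 FPKM in control, 554.0, 523.2 and 573.7 FPKM at 30 min and 1289, 1281 and 1354 FPKM at 24 h. The 24 h libraries were all above the rest, at a log2 fold change of 1.18 (SE 0.058, adjusted p = 6.1e-13). Other annotated genes, on both strands, cover 48.04% of the exonic bases of CTSD in GENCODE 44. The annotation and strand setting of the counting are not given in the sources used here, so part of its counts could belong to them. The same limit holds for CTSZ (31.65%), CTSA (21.51%), MAN2B1 (21.19%), GLB1 (14%) and TPP1 (13.9%). TPP1, which removes tripeptides from protein ends, was at 42.8, 41.0 and 43.8 FPKM in control and 88.9, 86.8 and 83.9 FPKM at 24 h. It rose by a log2 fold change of 0.96 (SE 0.052, adjusted p = 2.8e-12), with no overlap.

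CTSS, a cysteine cathepsin of antigen-presenting cells, was at 13.1, 13.7 and 13.2 FPKM in control and 26.5, 26.2 and 24.9 FPKM at 24 h. Its groups stood apart, at a log2 fold change of 0.89 (SE 0.065, adjusted p = 2.6e-10). CTSC, which trims dipeptides to activate granule proteases of myeloid cells, was at 29.9, 30.3 and 30.1 FPKM in control, 30.0, 30.5 and 28.9 FPKM at 30 min and 23.5, 23.5 and 24.1 FPKM at 24 h. The 24 h libraries were the lowest, and the gene fell by 0.41 on the log2 scale (SE 0.050, adjusted p = 5.5e-07), the lowest value of the 40 members. Cathepsins A and B (CTSA and CTSB) passed the adjusted p below 1.5-fold, at log2 fold changes of 0.39 and 0.30. CTSZ, the second most abundant peptidase of the list, was at 165.9 ± 11.1 FPKM in control and 159.8 ± 5.91 FPKM at 24 h (mean ± SD, n = 3) and did not pass (log2 fold change -0.12, adjusted p = 0.10).

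The glycosidases and sulfatases gave 3 higher calls among 9 tested genes, beside 14.7% of all tested genes. At the adjusted p alone 8 of the 9 were higher, beside 30.6% of all tested genes. NEU1, the sialidase that takes sialic acid off glycans, was at 20.2, 21.0 and 20.4 FPKM in control, 21.6, 20.2 and 22.2 FPKM at 30 min and 75.7, 70.6 and 74.6 FPKM at 24 h. The 24 h values were more than 3 times those of any other library, and the log2 fold change was 1.78 (SE 0.058, adjusted p = 9.4e-16). ARSA, the sulfatase of sulfatide, was at 2.73, 2.92 and 3.05 FPKM in control, 3.12, 3.69 and 3.55 FPKM at 30 min and 7.09, 6.94 and 7.42 FPKM at 24 h. The 24 h libraries were clear of the rest at a log2 fold change of 1.24 (SE 0.10, adjusted p = 2e-09), and its 30 min value of 0.27 (SE 0.11, adjusted p = 0.33) did not pass. HEXA, the alpha subunit of hexosaminidase A that degrades GM2 ganglioside, was at 18.5, 19.1 and 17.9 FPKM in control and 41.4, 41.9 and 41.9 FPKM at 24 h. It rose by a log2 fold change of 1.11 (SE 0.052, adjusted p = 3.8e-13), with 16.7% of its exonic bases shared with other annotated genes.

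GLB1, the beta-galactosidase of the complex that also holds NEU1 and CTSA, was at 49.5 ± 1.44 FPKM in control and 75.0 ± 0.75 FPKM at 24 h (mean ± SD, n = 3). Its log2 fold change of 0.54 (SE 0.052, adjusted p = 1.9e-08), taken after scaling between libraries, lay just under 1.5-fold. It was 0.602 with library totals and 0.599 from the FPKM values (limma, pseudocount 0.1), both above 1.5-fold. Within that complex NEU1, GLB1 and CTSA all rose but at 1.78, 0.54 and 0.39. The differences between these 3 values were not tested. GAA, the acid alpha-glucosidase of glycogen, has 2 longer forms in its promoter and rose by 0.36 (SE 0.068, adjusted p = 9.7e-05). MAN2B1, an alpha-mannosidase, was at 76.4, 81.0 and 76.9 FPKM in control and 80.0, 78.2 and 81.0 FPKM at 24 h. Those libraries overlapped, and its log2 fold change of -0.03 (SE 0.055, adjusted p = 0.63) changed sign with the scaling, reaching 0.033 with library totals.

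For the V-ATPase, 3 of 9 tested subunits were called higher, beside 14.7% of all tested genes. The median log2 fold change of 0.23 was the lowest of the roles. ATP6V1D, a stalk subunit of the cytosolic sector, was at 7.88, 7.30 and 7.40 FPKM in control, 8.38, 9.34 and 7.75 FPKM at 30 min and 14.3, 14.2 and 12.9 FPKM at 24 h. Its 24 h libraries did not overlap the others, at a log2 fold change of 0.81 (SE 0.079, adjusted p = 2e-08). ATP6V0D1, of the membrane sector, was at 5.75, 7.04 and 6.48 FPKM in control and 10.9, 10.5 and 11.4 FPKM at 24 h. That gave a log2 fold change of 0.71 (SE 0.078, adjusted p = 1.1e-07) without overlap. ATP6AP1, an accessory protein of pump assembly, was at 30.1, 30.5 and 28.6 FPKM in control and 47.0, 48.7 and 48.5 FPKM at 24 h. Its groups were apart, but its log2 fold change of 0.63 (SE 0.060, adjusted p = 1.2e-08) fell to 0.579, under 1.5-fold, when all genes set the scaling.

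ATP6V1A and ATP6V1B2, the catalytic and regulatory subunits of the cytosolic sector, both had log2 fold changes of 0.23 (adjusted p = 0.015 and 0.00042). ATP6V1C1, which links that sector to the stator, was at 16.95, 15.54 and 16.53 FPKM in control, 14.9, 14.5 and 14.4 FPKM at 30 min and 16.2, 16.4 and 16.7 FPKM at 24 h. Control and 24 h libraries overlapped, at a log2 fold change of -0.05 (SE 0.059, adjusted p = 0.44). ATP6V0B, a proteolipid of the proton path with 2 E-boxes, likewise had -0.04 (SE 0.063, adjusted p = 0.64). Both values turned positive when library totals alone set the scaling, at 0.010 and 0.029. Among the 14 other V-ATPase genes listed, 9 were tested. Of these, 1 was called higher (11.1%) and 0 lower, beside 14.7% and 11.6% of all tested genes. The called gene was TCIRG1, an alternative to ATP6V0A1 in the membrane sector, named here after its values were seen. TCIRG1 was at 13.9, 15.8 and 13.8 FPKM in control and 32.1, 31.6 and 31.7 FPKM at 24 h, with a log2 fold change of 1.07 (SE 0.066, adjusted p = 1.9e-11).

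**Figure D3:**
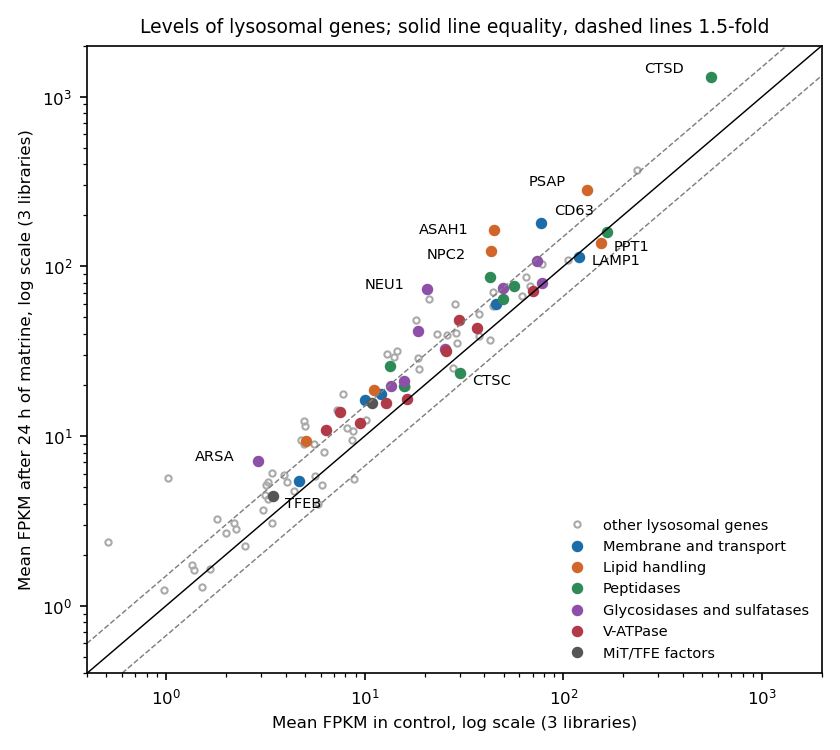
Mean FPKM in control against mean FPKM after 24 h of matrine (3 libraries each, both axes on a log scale) for the tested lysosomal genes coloured by role and for the other lysosomal genes in grey. Highly and weakly expressed genes both lie above the upper 1.5-fold line, from CTSD at 551.9 and 1308 FPKM to ARSA at 2.90 and 7.15 FPKM, and LAMP1, PPT1 and CTSC lie below equality. The levels lack the scaling used for the calls, so a gene near a dashed line, such as GLB1, can lie beyond it without a call.

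Of the MiT/TFE factors, which control many lysosomal genes, neither tested member was called. TFE3 was at 10.7, 10.6 and 11.2 FPKM in control, 11.0, 10.1 and 10.6 FPKM at 30 min and 16.1, 16.0 and 14.6 FPKM at 24 h. Its 24 h libraries were above the rest, at a log2 fold change of 0.46 (SE 0.068, adjusted p = 5.6e-06). TFEB was at 3.15, 3.76 and 3.44 FPKM in control and 4.29, 4.37 and 4.66 FPKM at 24 h. It did not overlap control either, at a log2 fold change of 0.31 (SE 0.10, adjusted p = 0.012). TFEC, the family member outside the list, was at 4.98, 4.10 and 4.05 FPKM in control and 4.16, 3.54 and 3.80 FPKM at 24 h, and its groups overlapped (log2 fold change -0.25, SE 0.12, adjusted p = 0.067). These are mRNA levels, and where the proteins lay in the cell was not measured.

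Genes linked to the MiT/TFE factors or to their control were read as a further list. Most were parts of mTORC1 and the Rag GTPase machinery, with the family member TFEC and GSK3B, PPP3CB, YWHAE and ZKSCAN3 besides. Of 22 tested, 5 were called higher and 0 lower, beside the 14.7% and 11.6% of all tested genes, and the median log2 fold change was 0.145. At the adjusted p alone 10 were higher and 3 lower, beside 30.6% and 32.7% of all tested genes. The 3 lower were RPTOR, LAMTOR2 and YWHAE at -0.55, -0.29 and -0.36. The 5 called higher, named after their values were seen, were FNIP2 at 1.44 (SE 0.082) and FLCN at 0.88 (SE 0.072), partners in a complex that acts on Rag GTPases, the Rag GTPases RRAGD at 0.76 (SE 0.089) and RRAGC at 0.72 (SE 0.077), and TSC1, a brake on mTORC1, at 0.68 (SE 0.079). FNIP2 went from 2.84, 2.35 and 2.67 FPKM in control to 7.41, 7.84 and 6.99 FPKM at 24 h, with no overlap.

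E-boxes stood both in members that were called and in members that were not. Of the members called higher at 24 h, 11 had a promoter entry, and 4 of them (36.4%) held an E-box and 1 (9.09%) the longer form. Of the tested members not called, 16 had an entry, and 5 (31.2%) held an E-box and 4 (25.0%) the longer form. NEU1, CTSD, CD63 and ATP6V0D1 carried 1 E-box each and rose at least 1.5-fold. The 5 not called were LAMP1 with 6 E-boxes, at a log2 fold change of -0.14, and 4 genes with 2 each. Those were ATP6V0B at -0.04, MCOLN1 at 0.16, GAA at 0.36 and CTSA at 0.39. The part of E-boxes in these changes was not tested. These shares are a description over few genes.

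**Figure D4:**
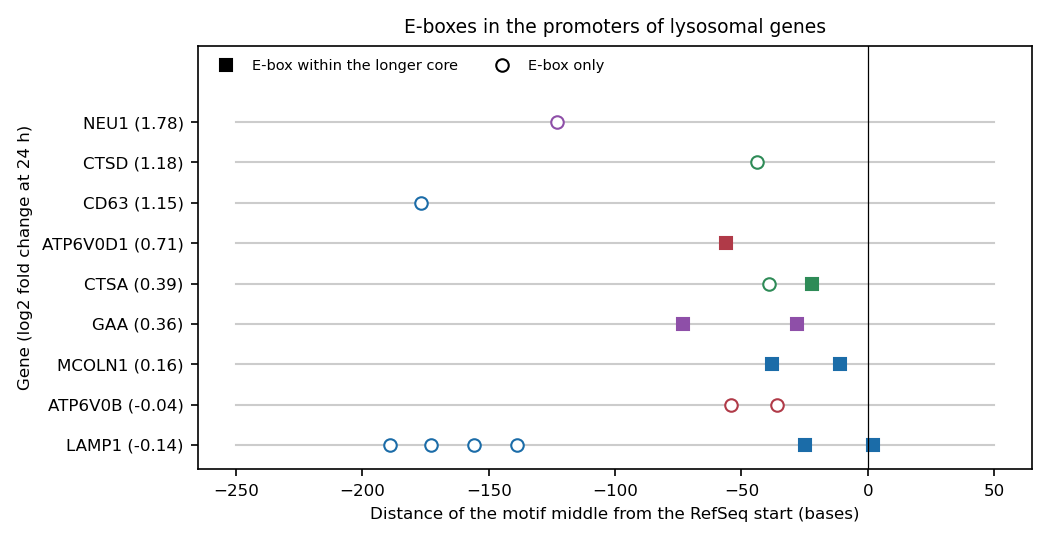
Position of each E-box in the promoters of 9 lysosomal genes, in bases from the RefSeq start, ordered by log2 fold change at 24 h (in parentheses), with squares for E-boxes within the longer form and circles for the rest. LAMP1, at the bottom with a log2 fold change of -0.14, has 6 E-boxes, and NEU1, at the top with 1.78, has 1.

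The other lysosomal genes, a list of 81 that holds none of the 45, were read in the same way. Of 64 tested at 24 h, 22 were called higher and 2 lower, where 14.7% and 11.6% of all tested genes were, and the median log2 fold change was 0.36, against -0.006 over all tested genes. At 30 min 0 of 62 were called by edgeR, DESeq2 or limma. At an unadjusted p below 0.05 (edgeR) there were 4, beside 1284 of all 11587 tested genes. CTSO, a cysteine cathepsin, was at 1.01, 0.96 and 1.09 FPKM in control and 6.15, 5.35 and 5.39 FPKM at 24 h. Its libraries did not overlap, and the log2 fold change was 2.40 (SE 0.14, adjusted p = 1e-11). CTSK, the cathepsin known from bone resorption, had 2.16 (SE 0.26), but its control mean of 0.51 FPKM means that it passed the filter only through the 24 h libraries. Its call is among the 22 and gives no support. ARSG, with a control mean of 0.98 FPKM, passed in the same way and was not called. SCPEP1, a serine carboxypeptidase, and GM2A, the activator that presents GM2 ganglioside to hexosaminidase A, had 1.55 (SE 0.060) and 1.35 (SE 0.058). The called lower genes were HYAL2, a hyaluronidase, at -0.73 (SE 0.094) and NAGPA, which finishes the mannose 6-phosphate tag on hydrolases, at -0.60 (SE 0.095). NAGPA lost its call without control replicate 2 (-0.50), without 24 h replicate 1 (-0.55), with library totals (-0.54) and with limma (-0.52 and -0.44), and HYAL2 lost its call with limma at a pseudocount of 1 (-0.58).

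Of 12 markers of macrophage differentiation listed, 11 matched, 4 were tested at 24 h and 3 were called higher, beside the 14.7% of all tested genes: ITGAX at a log2 fold change of 2.62, MARCO at 1.74 and ITGAM at 1.24. ITGAX and MARCO had control means of 0.607 and 0.957 FPKM and passed the filter only through their 24 h libraries, so their calls give no support, and FCGR1A, the other tested marker, had 0.20 (adjusted p = 0.18). The summed level over all 11 was 6.01 to 7.03 FPKM in control, at most 6.26 FPKM at 30 min and 14.7 to 15.8 FPKM at 24 h, with the defining CD14 at 0.26 FPKM or less, CD163 at 0.01 FPKM or less and MSR1 at 0 in every library. Their part in the lysosomal result was not tested. Of the 8 myelomonocytic markers, all were tested and 3 were called higher and 0 lower, beside 14.7% and 11.6% of all tested genes. The largest log2 fold change of these markers was 1.695 and their median was 0.523, with 5 above 0 and 3 below. At the adjusted p alone 5 were higher and 2 lower, beside 30.6% and 32.7% of all tested genes. The 2 lower were SPI1 at -0.33 (adjusted p = 0.00025) and LYZ at -0.32 (adjusted p = 2e-05). The 8 summed to 587.6 to 593.1 FPKM in control and 784.0 to 791.8 FPKM at 24 h. The 6 erythroid markers summed to 42.2 to 45.7 FPKM in control and 92.4 to 93.6 FPKM at 24 h, nearly all of it the transferrin receptor TFRC, with HBG1 at 0. The 5 lymphoid markers summed to 162.5 to 186.3 FPKM in control and 277.7 to 292.6 FPKM at 24 h, nearly all of it the granule protein NKG7, with MS4A1, CD3E and CD8A at 0. Markers outside blood summed to 0.11 FPKM or less in every library.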

How the data were processed

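The deposited table held raw read counts per gene and FPKM values for 9 U937 libraries. The authors mapped reads with HISAT2 (2.0.1) and estimated expression with HTSeq (0.6.1), per the study's methods, and the submitters' processing notes also name cutadapt (1.9.1). Those notes name GRCh37 and the study's methods hg38. The annotation release and strand setting are not given in the sources used here, so no coordinates of the table were used. Symbols came from GENCODE 44 (51996 of 57905 identifiers matched).

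Counts were tested with edgeR 4.0.16 (R 4.3.3): TMM scaling on tested genes, quasi-likelihood F test on all 9 libraries, and Benjamini-Hochberg adjustment over all tested genes. The study itself used DESeq2, which was run here as an alternative (1.42.0), as was limma 3.58.1 on log2(FPKM + 0.1) and log2(FPKM + 1). Levels are the deposited FPKM. SE was the log2 fold change divided by the square root of F. Values given in the text were, for each role, the 3 largest and the smallest log2 fold changes at 24 h, all MiT/TFE factors, and the 4 largest and the called lower other lysosomal genes. Other genes are named with their values where a count, a complex or a motif turns on them. The members and lists were chosen with earlier results of these data known.

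Replicate libraries differed by more than sampling noise (chi-square per degree of freedom 2.14 to 11.9). An exact permutation test of 3 against 3 cannot give a two-sided p under 0.1. The script was tested on simulated data. Libraries of other cell lines were not analysed here.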

Additional observations from a re-analysis of the deposited data

Results flagged for a closer look

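The changes from control at 24 h and at 30 min differed by the test of their difference, 24 h against 30 min (edgeR, adjusted p below 0.05 and at least 1.5-fold), for 17 members. Both changes are taken from the same 3 control libraries. For lipid handling, the log2 differences were 1.80 for ASAH1, 1.30 for NPC2, 0.98 for PSAP, 0.93 for SMPD1 and 0.70 for LIPA. The membrane genes CD63 and NPC1 had 1.08 and 0.73. The peptidases CTSD, CTSS and TPP1 had 1.18, 0.95 and 0.87. Among the glycosidases and sulfatases, NEU1 had 1.71, HEXA 1.00, ARSA 0.98 and NAGLU 0.75. NAGLU is the one of these that was not called against control at 24 h, and its 30 min level was below control. The V-ATPase genes ATP6V0D1, ATP6V1D and ATP6AP1 had 0.74, 0.63 and 0.59.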

How the results depend on the processing

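At 24 h, 16 members were called higher than control in each fit that left out 1 library, and 16 to 17 were called higher than at 30 min. With 3 libraries a group, differences below about 1.5-fold rest on small spreads and on the scaling. With no fold threshold, 32 members were higher and 3 lower than control, and with a 2-fold threshold 8 were higher (31, 3 and 5 against 30 min). Over all 12035 genes tested against control, the same counts were 3688, 3939 and 751. Over all 11981 genes tested against 30 min, they were 3981, 3844 and 791. The members' median log2 fold change at 24 h was 0.409 with no filter on low values, 0.561 with a mean FPKM above 5, 0.536 with library totals, 0.418 with TMM factors from all genes (chosen after seeing the data), 0.531 and 0.502 with limma at pseudocounts of 0.1 and 1, and 0.484 with only the 6 libraries compared. Against 30 min it was 0.419, 0.573, 0.533, 0.393, 0.526 and 0.493 in the same order, without the last. Leaving out 1 library gave medians of 0.027 to 0.098 at 30 min, 0.448 to 0.485 at 24 h and 0.420 to 0.484 for 24 h against 30 min.

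For the other lysosomal genes, no fold threshold gave 1 lower at 30 min, beside 154 of all 11587 tested genes. It gave 45 higher and 6 lower in both comparisons of 24 h, beside the counts over all tested genes given above. A 2-fold threshold gave 10 higher against control, 9 higher against 30 min and 0 lower in both. Over all tested genes it gave 751 higher and 375 lower against control, and 791 higher and 340 lower against 30 min. Of the 2 lower calls of other lysosomal genes in both, 1 was made under the FPKM minimum of 5, library totals and limma at 0.1. None was made under limma at 1. Leaving out 1 library gave 22 to 23 higher and 1 to 2 lower against control (1 without control replicate 2 or 24 h replicate 1).

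At 24 h, 3 uncalled members changed sign. With a mean FPKM above 5, library totals and limma at 0.1 and 1, MAN2B1 had 0.049, 0.033, 0.030 and 0.030, ATP6V0B had 0.045, 0.029, 0.029 and 0.029, and ATP6V1C1 had 0.027, 0.010, 0.008 and 0.008. Leaving out 1 library gave -0.086 to 0.036 for ATP6V0B, positive without control replicate 2. ATP6AP1 lost its call (0.579) with no filter and with TMM factors from all genes. GLB1 gained one with a mean FPKM above 5 (0.618), library totals (0.602) and limma (0.599 and 0.590). At 30 min 13 of 40 members changed sign under some alternative, and none was called. The cause of these changes was not tested.

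Replicate numbers showed no clear pairing of the samples. Correlations of deviations were -0.159 to 0.103 for same-numbered libraries and -0.154 to 0.188 for other-numbered libraries. With 3 libraries a group, a weak pairing cannot be told from none. With the replicate number as a block, 1770 genes were higher and 1393 lower at 24 h, and 16 members were higher and 0 lower.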
